A study of Setaria viridis with 23 samples.

Results

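The genes described here are 150 genes of green foxtail, Setaria viridis, whose transcripts were more abundant in inflorescence primordia at 14, 15 and 16 days after sowing (DAS) than at 10 and 18 DAS. They were chosen by these values themselves. Levels are given as CPM, the count of a gene divided by the library total and multiplied by 1000000, averaged within a stage. A gene was eligible when its means at 14 and 16 DAS were both at least 5 CPM and its 14 DAS mean was less than 2 times its 12 DAS mean. Genes were passed over when the study lists them in its tables of transcription factor families, auxin-related genes or network neighbours, or names them in its text. Of the 35214 genes in the table, 13991 were eligible. The 150 with the largest score were taken, the score being log2 of the lowest mean of 14, 15 and 16 DAS over the higher mean of 10 and 18 DAS, each with 0.5 CPM added.

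All 23 libraries came from accession A10.1, the reference genotype, with no treatment or mutation, and each library held a pool of hand-dissected primordia. Each stage had 4 libraries except 12 DAS, which had 3. The stages run from the early inflorescence meristem through branching (12 and 14 DAS) and the formation of spikelet meristems (15 DAS) to spikelets and bristles (16 DAS) and floral organs (18 DAS). A pool mixes meristems, organ primordia and young stem, so more cells of a type and more RNA per cell cannot be told apart. The stages at 10, 12 and 14 DAS were sequenced from both ends, with only the first read counted, and those at 15, 16 and 18 DAS from a single end, so this difference in sequencing cannot be told apart from stage in any comparison across 14 and 15 DAS.

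In grasses, the inflorescence meristem forms branch meristems, and these form spikelet meristems that end in florets. In Setaria, part of the branches end as sterile bristles in place of spikelets. Genes that act while a meristem changes its fate are often most abundant for a limited time and fall again when organs differentiate.

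Library totals ranged from 7630744 to 24467495 counts, and the smallest were 15 DAS replicate 2 (7630744 counts) and 15 DAS replicate 1 (8964218 counts). At these depths, 5 CPM stood for 38.2 counts in the smallest library and 122 in the largest. Of 10 meristem and inflorescence marker genes, 7 had at least 1 CPM at every stage. The exceptions were SvFon2, SvWus and SvBd1. A list of 11 genes for photosystem, chlorophyll-binding and Rubisco proteins summed to between 65.9 and 158 CPM, and none of the 150 genes belonged to it. The small subunit of Rubisco in that list averaged between 0.0541 CPM at 12 DAS and 1.69 CPM at 18 DAS.

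The elevation that chose the genes was modest for most of them. The score ranged from 0.36 to 1.48 with a median of 0.44, which is a 1.35-fold difference between the lowest stage of the plateau and the higher stage outside it. A difference of at least 1.5-fold was present in 36 of the 150 genes, and one of at least 2-fold in 6. The word "only" in a description of these genes as high at 14 to 16 DAS only would therefore go too far. The 10 DAS mean was a median of 59.7% of the 14 DAS mean (from 11.8% to 77.9% among the genes), and the 18 DAS mean was a median of 61.6% of the 16 DAS mean (from 12.3% to 77.6%). The limit between chosen and passed-over genes was also narrow. The last gene inside was Sevir.8G184700, whose score was 1.2811 as a fold, and the first outside was Sevir.6G108900 at 1.2809. The others inside were Sevir.9G495800 and Sevir.7G080300, both at 1.28-fold, and the others outside were Sevir.5G052500 and Sevir.9G314300, also at 1.28-fold.

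**Figure D1:**
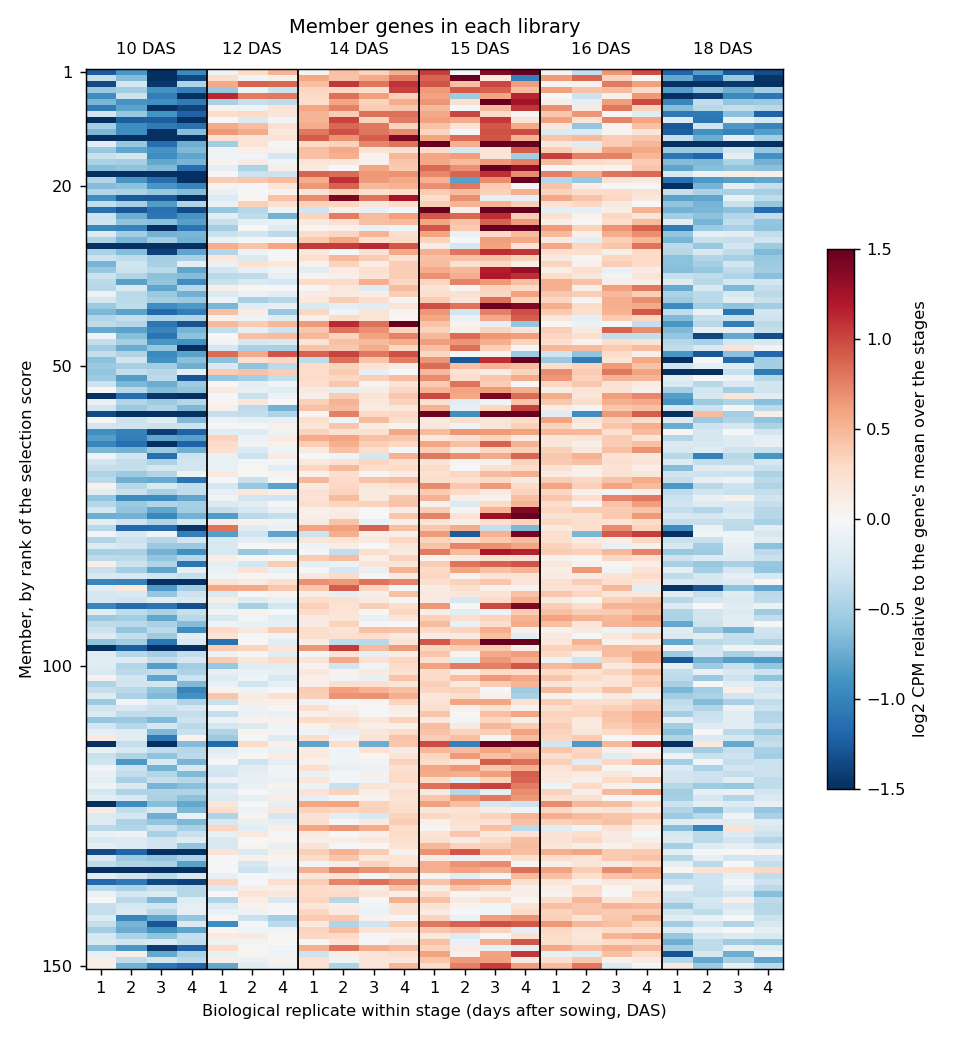
Heat map of the 150 genes (rows, by rank of the score) in the 23 libraries (columns, by stage and replicate). Colour gives log2 CPM relative to the gene's mean over the 6 stages (red higher, blue lower). Most rows are blue at 10 and 18 DAS and red from 14 to 16 DAS, and the strongest reds lie in single 15 DAS libraries.

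Within the plateau the genes did not peak together. The highest stage mean was at 15 DAS in 81 genes, at 16 DAS in 36, at 14 DAS in 31 and at 12 DAS in 2 (Sevir.5G429000 and Sevir.9G058100). At 12 DAS the mean lay above the 10 DAS mean in 147 genes and above the 14 DAS mean in 3. At that stage a median of 55.2% of the CPM gained between 10 and 14 DAS was already present. In 131 genes the 12 DAS mean exceeded both the 10 and the 18 DAS means, so 12 DAS was a stage of intermediate level in most of them. On the log2 scale the medians over the genes were 0.41 for 12 over 10 DAS, 0.29 for 14 over 12 DAS and 0.68 for 16 over 18 DAS. All of these measures entered the choice of the genes or share its stages, and they are descriptions.

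Single libraries followed the stage means in most genes. In 128 genes every 14 DAS library lay above every 10 DAS library, which held for 19.4% of all 21180 genes tested. In 139 genes every 16 DAS library lay above every 18 DAS library, against 18.3% of all genes. Every library at 14, 15 and 16 DAS exceeded every library at 10 and 18 DAS in 90 genes, against 1.1% of all genes. The genes were chosen by these stages, so nothing can be read from the differences in these shares. As medians over the 150 genes, the libraries at 14, 15 and 16 DAS lay between 0.20 and 0.47 above the mean over stages on the log2 scale, those at 12 DAS between -0.09 and -0.04, those at 18 DAS between -0.45 and -0.28 and those at 10 DAS between -0.66 and -0.36. The 10 DAS libraries thus spread most, and 15 DAS replicate 2, at 0.25, was the lowest of its stage, where the other 15 DAS libraries lay between 0.42 and 0.47.

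**Figure D2:**
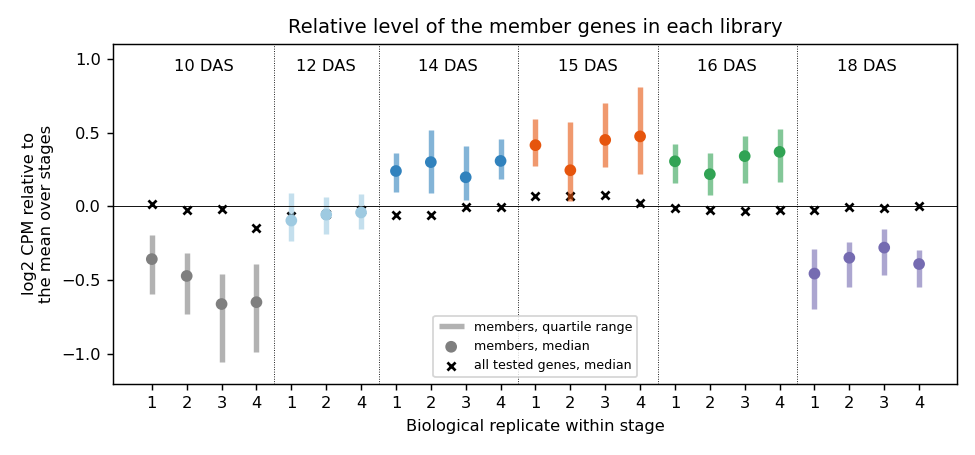
Relative level of the 150 genes per library (points are medians and thick bars the quartile range over genes, crosses the median of all 21180 tested genes). The x axis gives the replicate within each stage and the y axis log2 CPM relative to each gene's mean over the 6 stages. Medians from 14 to 16 DAS lie at 0.20 or above, those at 12 DAS near 0 and those at 10 and 18 DAS at -0.28 or below.

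Sevir.2G385400 had the highest score (1.48) and no description in the sources used here. Its level was 3.96, 5.27, 3.14 and 4.93 CPM in the 10 DAS libraries, 9.59, 12.3 and 14.5 CPM at 12 DAS, and 10.4, 13.9, 12.8 and 14.8 CPM at 14 DAS. It was 21.2, 9.83, 26.9 and 40.0 CPM at 15 DAS, 10.3, 7.76, 16.2 and 20.3 CPM at 16 DAS, and 4.12, 5.44, 3.92 and 3.72 CPM at 18 DAS. No library at 10 or 18 DAS reached any from 12 to 16 DAS, and the 15 DAS libraries differed by several fold among themselves.

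Sevir.2G021700 followed with a score of 1.41 and was also without a description. It had 3.84, 3.03, 1.33 and 1.66 CPM at 10 DAS, 6.17, 4.91 and 5.41 CPM at 12 DAS, and 7.81, 6.96, 7.74 and 9.11 CPM at 14 DAS. Levels were 9.71, 15.7, 5.66 and 2.24 CPM at 15 DAS, 8.13, 9.70, 6.57 and 5.17 CPM at 16 DAS, and 2.77, 1.87, 3.24 and 1.5 CPM at 18 DAS. The order of the 15 DAS libraries was the reverse of that in Sevir.2G385400, and replicate 4 fell within the range of the 10 and 18 DAS libraries.

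Sevir.7G119700 is described as a KOR2-like potassium channel, a member of the outward-rectifying type that carries potassium out of cells. It had 1.63, 3.98, 1.51 and 3.46 CPM at 10 DAS, 7.58, 9.59 and 9.40 CPM at 12 DAS, and 6.95, 10.9, 9.05 and 11.1 CPM at 14 DAS. At 15 DAS it had 10.0, 6.95, 10.4 and 7.92 CPM, at 16 DAS 5.14, 5.17, 8.90 and 7.85 CPM, and at 18 DAS 0.852, 0.242, 1.51 and 0.715 CPM. This channel gene had its 12 DAS level close to its plateau, and every library at 18 DAS lay below those at 10 DAS, except that replicate 3 was level with the lowest of them.

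Sevir.5G432200, without a description, had 6.95, 7.16, 5.37 and 4.87 CPM at 10 DAS, 6.88, 9.89 and 8.24 CPM at 12 DAS, and 13.2, 13.1, 12.5 and 21.9 CPM at 14 DAS. Its later levels were 16.5, 20.3, 19.7 and 14.6 CPM at 15 DAS, 16.3, 14.3, 14.7 and 12.9 CPM at 16 DAS, and 5.68, 6.76, 6.10 and 7.15 CPM at 18 DAS. Among the first 5 it came closest to a step, with 12 DAS still near the 10 and 18 DAS levels and every library from 14 to 16 DAS above 12 CPM.

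Sevir.5G429000 had its highest mean before the plateau, at 12 DAS (10.6 ± 1.61 CPM, SD, n = 3). Its 4 libraries had 2.60, 4.28, 2.38 and 1.30 CPM at 10 DAS, and the 3 at 12 DAS had 12.5, 9.66 and 9.76 CPM. Later stages gave 6.73, 10.0, 8.61 and 7.11 CPM at 14 DAS, 8.48, 3.60, 8.47 and 12.5 CPM at 15 DAS, 5.38, 4.29, 5.69 and 8.77 CPM at 16 DAS, and 1.45, 1.73, 2.56 and 2.29 CPM at 18 DAS. At 15 DAS replicate 2 was lower than the highest 10 DAS library. Counts of this gene had a fraction in 14 of the 23 libraries, as Salmon gives where reads fit more than 1 transcript, so its level is less certain.

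**Figure D3:**
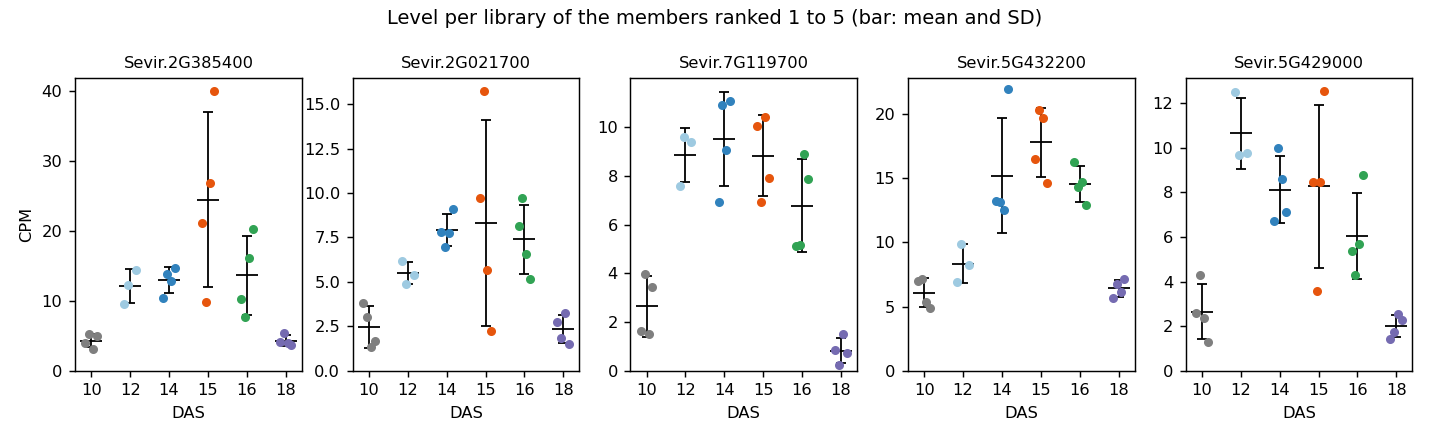
CPM of the 5 genes with the highest scores in each library (points) with the mean and SD of each stage (bars), over 10 to 18 DAS. Sevir.2G385400 and Sevir.2G021700 spread most at 15 DAS, from 9.83 to 40.0 CPM and from 2.24 to 15.7 CPM, and Sevir.5G429000 is highest at 12 DAS.

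The genes ranked 6 to 20 had scores from 1.05 to 0.72. Sevir.1G182900, described as a poly(ADP-ribose) synthetase, a class of enzyme that modifies proteins with ADP-ribose during DNA repair and stress, had 63.6 ± 7.19 CPM at 14 DAS, 92.8 ± 34.7 CPM at 15 DAS and 64.3 ± 23.2 CPM at 16 DAS, against 25.1 ± 2.68 CPM at 10 DAS and 30.5 ± 5.31 CPM at 18 DAS (SD, n = 4 each). Sevir.4G119300, described by an NAD(P)-binding domain, was the only other one of them with a description. The rest were Sevir.6G206000, Sevir.3G240600, Sevir.7G201500, Sevir.3G294000, Sevir.4G292500, Sevir.5G438800, Sevir.7G145400, Sevir.2G259400, Sevir.3G381200, Sevir.9G317000, Sevir.5G122200, Sevir.9G504800 and Sevir.5G442600. Their 14 DAS means spanned 6.36 CPM (Sevir.7G201500) to 165 CPM (Sevir.7G145400). CPM is not corrected for transcript length, so these values do not rank the genes by abundance.

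The comparison of 15 with 14 DAS spans the formation of spikelet meristems. The kind of sequencing differed between these stages too and cannot be told apart from stage. The edgeR quasi-likelihood test called 34 of the 150 genes higher and 20 lower at 15 DAS (adjusted p under 0.05 over all genes), or 36.0% together. Among all 21180 genes tested, 56.4% were called, 29.4% higher and 27% lower. The median log2 fold change was 0.03 in the 150 genes and 0.03 in all genes, and the median size without sign was 0.24 in the 150 genes and 0.44 in all genes. The rule asks for a high level at both stages and so selects against large drops between them, and the lower share called cannot be read as a property of the genes. When libraries were scaled by their totals alone, the split was 49 higher and 10 lower, and this scaling moved the median of all genes by 0.10 on the log2 scale. Without 15 DAS replicate 4 the median of the 150 genes became -0.01, with 23 genes higher and 22 lower.

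The largest rise at 15 DAS was that of Sevir.2G180600, described as a carotenoid cleavage dioxygenase (CCD1), an enzyme that cuts carotenoids into volatile and signalling compounds. It had 25.5, 9.17, 49.6 and 93.6 CPM in the 15 DAS libraries, against 6.89, 9.15, 7.92 and 8.43 CPM at 14 DAS. Every 15 DAS library was above the 14 DAS range, replicate 2 only just, and replicate 4 was the highest. The log2 fold change was 2.39 (SE 0.39, edgeR adjusted p = 2.19e-05), and without 15 DAS replicate 4 it was 1.70. At 16 DAS the level was 7.74, 7.84, 9.19 and 12.5 CPM, which gave a log2 fold change of -2.21 against 15 DAS (SE 0.39, edgeR adjusted p = 0.000391) and of -1.52 without 15 DAS replicate 4.

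Other rises at 15 DAS came from genes with no description. Sevir.6G063500 had 22.0 ± 8.50 CPM at 15 DAS and 8.14 ± 1.89 CPM at 14 DAS (SD, n = 4 each), a log2 fold change of 1.36 (SE 0.26, edgeR adjusted p = 0.000124). Sevir.3G304000 had 76.2 ± 35.0 CPM at 15 DAS and 28.7 ± 1.62 CPM at 14 DAS, a log2 fold change of 1.32 (SE 0.23, edgeR adjusted p = 4.82e-05). In both, all 15 DAS libraries were above all 14 DAS libraries. The libraries of the stages overlapped in Sevir.5G127000 (log2 fold change 1.43, SE 0.53, edgeR adjusted p = 0.0246) and in Sevir.9G463500 (1.24, SE 0.45, edgeR adjusted p = 0.0235). Those calls depended on single libraries: Sevir.5G127000 lost its call in 3 of 8 fits that left out a library (log2 fold change 0.85, adjusted p = 0.172 without 15 DAS replicate 4), and Sevir.9G463500 in 5 of 8.

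The largest called falls at 15 DAS were smaller than the largest rises, and the rule selects against large drops. Calls of more than 2-fold were 7 higher and 2 lower in the 150 genes, against 11.7% higher and 4.46% lower in all genes. The difference in size is therefore a description. Sevir.7G299200 had 10.4, 7.86, 6.88 and 4.91 CPM at 15 DAS, against 12.1, 17.1, 13.9 and 22.1 CPM at 14 DAS. These libraries did not overlap, and the log2 fold change was -1.24 (SE 0.22, edgeR adjusted p = 6.23e-05). Sevir.9G137300 had a log2 fold change of -1.08 (SE 0.19, edgeR adjusted p = 6.11e-05), with 9.10 ± 2.24 CPM at 15 DAS and 17.8 ± 1.17 CPM at 14 DAS (SD, n = 4 each). Both are without a description.

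The next falls were in described genes. Sevir.1G042400 is described as a cytochrome P450 of the CYP734A group, enzymes that inactivate brassinosteroid hormones. It had 25.1, 33.7, 18.9 and 18.9 CPM at 15 DAS, against 34.1, 55.7, 36.5 and 49.5 CPM at 14 DAS, and its log2 fold change was -0.98 (SE 0.20, edgeR adjusted p = 0.000274). Sevir.3G046000 is described as UPL4, a HECT-domain ligase that attaches ubiquitin to proteins. It had 15.7, 12.1, 22.1 and 16.8 CPM at 15 DAS, against 30.3, 30.3, 32.1 and 28.0 CPM at 14 DAS, with a log2 fold change of -0.94 (SE 0.18, edgeR adjusted p = 0.000118). No 15 DAS library of either gene reached the 14 DAS range. Sevir.8G201600 had overlapping libraries (log2 fold change -0.75, SE 0.28, edgeR adjusted p = 0.0244) and lost its call in 3 of 8 fits that left out a library.

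**Figure D4:**
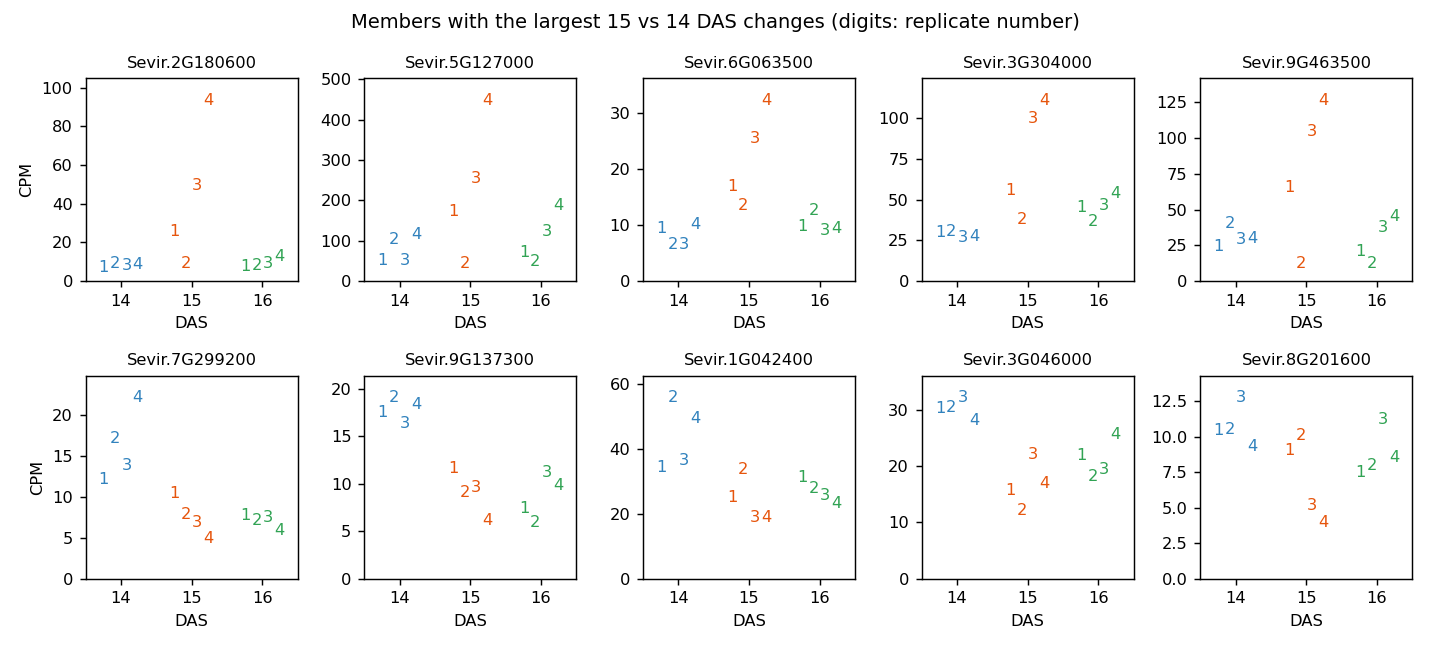
CPM in the 14, 15 and 16 DAS libraries of the 10 genes with the largest called changes at 15 against 14 DAS (5 higher in the upper row, 5 lower in the lower row). Digits are replicate numbers. In the upper row 15 DAS replicate 4 is the highest library of each gene, and in Sevir.2G180600 it reaches 93.6 CPM.

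One order of the 15 DAS libraries recurred in part of the genes. In 32 of the 150 the level fell in the order replicate 4, 3, 1, 2, which was so in 10.1% of all tested genes, and in 15 the order was exactly the reverse, against 12.6% of all genes. The other 103 genes had neither order, against 77.3% of all genes. The 16 DAS libraries had the same order of replicate numbers in 43 genes, against 12.9% of all genes, and its reverse in 11, against 12.6%. Both stages had the order in 17 of the 150 genes, against 3.98% of all genes, and its reverse in 3, against 4.23%. This order was noticed in the values and is a description. Sevir.2G385400, Sevir.5G438800, Sevir.2G180600, Sevir.3G304000, Sevir.6G063500, Sevir.5G127000 and Sevir.9G463500 had the first order, and Sevir.2G021700, Sevir.2G259400 and the P450 gene Sevir.1G042400 the reverse. A coefficient of variation of at least 30% within 15 DAS was found in 27 of the 150 genes, against 23.1% of all genes. For the 10 DAS libraries the count was 22 (20% of all genes), for 12 DAS 6 (13.8%) and for 14 DAS 2 (14%). After 15 DAS it was 8 for 16 DAS (15.3%) and 15 for 18 DAS (14.9%). So wide a spread was most frequent at 15 DAS and next at 10 DAS, both in the 150 genes and in all genes. In the 150 genes these shares were 18% and 14.7%, below those of all genes.

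At 15 DAS the leaf list moved with the same libraries. Its summed level was 117 CPM in 15 DAS replicate 1, 105 CPM in replicate 2, 129 CPM in replicate 3 and 158 CPM in replicate 4, so these followed the order replicate 4, 3, 1, 2 too. The sum ranged from 105 to 158 CPM at 15 DAS, against 69.6 to 75.8 CPM at 14 DAS. In 16 DAS replicates 1 to 4 it was 65.9, 68.7, 75.5 and 79.9 CPM, which is the order replicate 4, 3, 2, 1. The largest part was Sevir.1G101700, with a chlorophyll-binding domain, at 41.1, 48.2 and 38.3 CPM at 14, 15 and 16 DAS. The mean rose most in CPM from 14 to 15 DAS in Sevir.3G348100 and Sevir.9G418400, both described as photosystem II proteins. At 14, 15 and 16 DAS the former averaged 12.3, 31.4 and 15.0 CPM and the latter 5.60, 23.4 and 6.54 CPM. Of the 9 genes of the list that were tested, 5 were called at 15 against 14 DAS, each higher, and 4 at 16 against 15 DAS, each lower. Of all tested genes, 29.4% were called higher at 15 against 14 DAS and 14.8% lower at 16 against 15 DAS. At 14 DAS 1 of the 11 genes was at 0 in every library, and at the other stages none was. In the 10 and 18 DAS libraries, where the 150 genes were low by the rule, the list summed to 119 to 154 CPM and 97.4 to 137 CPM. The part of leaf or other green tissue in the 15 DAS values of the 150 genes was not tested.

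From 15 to 16 DAS, when spikelets and bristles differentiate, the edgeR quasi-likelihood test called 36 of the 150 genes (24.0%), 13 higher and 23 lower at 16 DAS. Among all tested genes 28.6% were called, 13.8% higher and 14.8% lower. The median log2 fold change was -0.06 in the 150 genes and -0.03 in all genes. Here too the rule favours a high level at both stages and so selects against large drops between them. The lower share called cannot be read as a property of the genes. The count was 23 without 15 DAS replicate 3 and 22 without 16 DAS replicate 3. With scaling by library totals alone the split was 6 higher and 35 lower. Both stages were sequenced from a single end, so the kind of sequencing did not differ here.

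After Sevir.2G180600, the largest fall was in Sevir.5G438800, a gene without a description, which had 6.11, 4.77, 7.22 and 7.85 CPM at 16 DAS, against 16.1, 8.13, 23.9 and 29.4 CPM at 15 DAS. Its libraries did not overlap, and the log2 fold change was -1.52 (SE 0.28, edgeR adjusted p = 0.000496). Sevir.9G463500 (log2 fold change -1.36) lost its call in 4 of 8 fits that left out a library, while Sevir.6G063500 (-1.06) and Sevir.9G317000 (-0.94) kept theirs in all 8. Both this comparison and that of 15 with 14 DAS rest on the same 15 DAS libraries, so a library that is high there enters both with opposite sign. Sevir.6G063500 had a log2 fold change of 1.36 at 15 against 14 DAS and of -1.06 at 16 against 15 DAS, and Sevir.9G317000 of 0.75 and -0.94.

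Increases at 16 DAS were small, and this was general among the tested genes. Calls of more than 2-fold were 0 higher and 4 lower in the 150 genes, against 0.274% higher and 3.25% lower in all genes. Sevir.3G225700 had 306, 279, 298 and 286 CPM at 16 DAS, against 257, 223, 191 and 187 CPM at 15 DAS, a log2 fold change of 0.53 (SE 0.13, edgeR adjusted p = 0.00614). In that gene, and in Sevir.2G333600 (log2 fold change 0.42, SE 0.10, edgeR adjusted p = 0.00293), every 16 DAS library was above every 15 DAS library. The libraries overlapped in Sevir.3G347000 (0.42), Sevir.7G213000 (0.41) and Sevir.2G259400 (0.60). Sevir.2G259400 had the largest value, with 22.3, 18.5, 18.3 and 15.4 CPM at 16 DAS, against 16.3, 16.8, 12.3 and 7.37 CPM at 15 DAS, and an edgeR adjusted p of 0.0478 that was lost in 5 of 8 fits that left out a library. Sevir.7G213000 lost its call in 3 of 8.

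**Figure D5:**
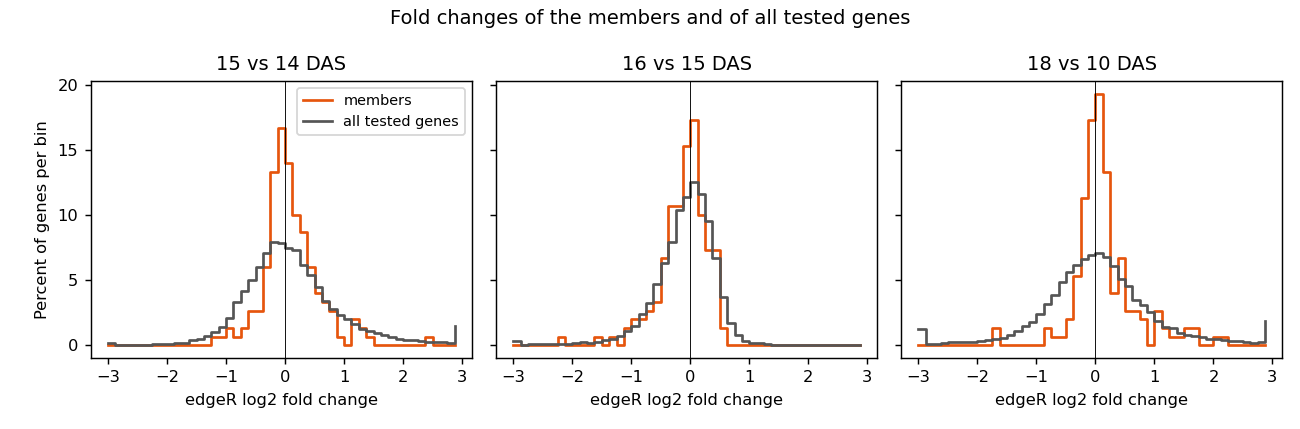
Distribution of edgeR log2 fold changes (x axis, bins of 0.125, values beyond 3 in the end bins) for the 150 genes and for all 21180 tested genes, as a percent of genes per bin (y axis), for 15 vs 14 DAS, 16 vs 15 DAS and 18 vs 10 DAS. The 150 genes lie closer to 0 in 15 vs 14 and 18 vs 10 DAS, with median sizes of 0.24 and 0.18 against 0.44 and 0.50 in all genes, as the rule favours.

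The last comparison sets 18 DAS against 10 DAS, the stages outside the plateau. The edgeR quasi-likelihood test called 39 of the 150 genes (26.0%), 32 higher and 7 lower at 18 DAS, against 61.2% of all tested genes, 31.3% higher and 29.9% lower. The median log2 fold change was 0.05 in the 150 genes and 0.01 in all genes, and it became -0.01 without 10 DAS replicate 3. The rule divides by the higher of these stages and so favours genes in which they are alike. The 18 DAS mean was the higher of the pair in 97 genes and the 10 DAS mean in 53. The rule limits the ratio of 14 over 12 DAS and sets no such limit after the plateau, and whether it favours a direction between 10 and 18 DAS was not tested, so the split of calls by direction is a description. The kind of sequencing differed between these stages and cannot be told apart from the change.

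The largest increase at 18 DAS was that of Sevir.9G163100. This gene, without a description, had 14.2, 16.2, 16.7 and 17.4 CPM at 18 DAS, against 4.37, 3.33, 2.96 and 2.69 CPM at 10 DAS, and 22.1 ± 1.40 CPM at 14 DAS. The groups lay far apart, with a log2 fold change of 2.22 (SE 0.13, edgeR adjusted p = 2.9e-12). Sevir.5G122200 had 51.8, 58.3, 65.5 and 64.7 CPM at 18 DAS, against 17.3, 15.1, 12.0 and 9.54 CPM at 10 DAS, a log2 fold change of 2.12 (SE 0.13, edgeR adjusted p = 9.81e-12). Its plateau was even, with means between 103 and 111 CPM. Next came Sevir.8G172600 (5.68 ± 0.447 CPM at 18 DAS and 1.65 ± 0.473 CPM at 10 DAS) and Sevir.4G162600 (5.01 ± 0.288 CPM at 18 DAS and 1.5 ± 0.426 CPM at 10 DAS), with log2 fold changes of 1.74 and 1.69. Sevir.9G463500 was called as well (1.57, SE 0.50, edgeR adjusted p = 0.00917), with overlapping libraries.

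Of the 7 genes called lower at 18 DAS, the potassium channel gene Sevir.7G119700 had the largest fall (log2 fold change -1.74, SE 0.39, edgeR adjusted p = 0.00057), with 0.829 ± 0.522 CPM at 18 DAS and 2.64 ± 1.26 CPM at 10 DAS. Sevir.5G438800 had 1.21, 1.09, 1.13 and 1.07 CPM at 18 DAS, against 4.78, 3.48, 2.17 and 3.07 CPM at 10 DAS, and a log2 fold change of -1.63 (SE 0.36, edgeR adjusted p = 0.000419). Sevir.9G058100 had a log2 fold change of -0.86 (SE 0.25, edgeR adjusted p = 0.00434). Sevir.1G287900, described as oligopeptide transporter 4, which carries short peptides across membranes, had -0.80 (SE 0.22, edgeR adjusted p = 0.0037), and Sevir.1G294100, described as a soluble inorganic pyrophosphatase, had -0.71 (SE 0.17, edgeR adjusted p = 0.00118).

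Only 25 of the 150 genes had a functional description in the sources used here, and 18 of the 25 carry an identifier of chromosome 1, because the annotation tables as held cover that chromosome most (1468 of 2322 described genes). The remaining 125 genes are named by identifier alone. The described genes therefore do not sample the set evenly.

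By keywords, 5 of the described genes fell under signalling. These were an LRR receptor-like kinase (Sevir.1G035700), a phytosulfokine-receptor-like kinase (Sevir.1G083600), a protein phosphatase 2C (Sevir.1G229900), a histidine kinase and HSP90-like ATPase (Sevir.1G159400) and the pyrophosphatase Sevir.1G294100, which shares only the keyword and is a metabolic enzyme. At 15 against 14 DAS 2 of them were called, both lower. The phosphatase 2C gene, of a class that removes phosphate in stress hormone signalling, had a log2 fold change of -0.29 at 15 against 14 DAS (edgeR adjusted p = 0.0452) and of 1.09 at 18 against 10 DAS (edgeR adjusted p = 3.04e-07). The ATPase gene had -0.27 at 15 against 14 DAS (edgeR adjusted p = 0.021) and 0.31 at 16 against 15 DAS (edgeR adjusted p = 0.0205). Both receptor kinase genes had counts with fractions in 21 or 22 libraries. Of all 182 tested genes with these keywords, 104 were called higher and 32 lower at 15 against 14 DAS, 15 higher and 48 lower at 16 against 15 DAS, and 73 higher and 25 lower at 18 against 10 DAS. Those lists come from tables the study built on these samples.

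Transport keywords covered 3 genes, the potassium channel Sevir.7G119700, a cyclic nucleotide-gated ion channel (Sevir.1G014200) and the oligopeptide transporter Sevir.1G287900. Their calls were 2, both lower at 18 against 10 DAS, in the potassium channel and the oligopeptide transporter genes. The gated channel gene had 56.7 CPM at 14 DAS, 62.3 CPM at 15 DAS and 58.3 CPM at 16 DAS, against 43.7 CPM at 10 DAS and 40.7 CPM at 18 DAS. Among the 86 tested genes with these keywords, 36 were called higher and 16 lower at 18 against 10 DAS. At 15 against 14 DAS the calls were 52 higher and 10 lower.

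The hormone keywords held 1 gene, the brassinosteroid-inactivating P450 Sevir.1G042400, which was lower at 15 against 14 DAS (above) and higher at 18 against 10 DAS (log2 fold change 0.80, edgeR adjusted p = 0.00244). Of 70 tested genes with hormone keywords, 42 were called higher and 11 lower at 15 against 14 DAS, and 28 higher and 9 lower at 18 against 10 DAS. Transcription keywords held 0 of the 25 members with a description and 315 of all 2322 described genes, and the rule had passed over the listed transcription factor families. Stress and defence keywords held 0 and 95. The 125 genes without a description could match no keyword, so these counts do not speak for the whole set.

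Protein turnover was represented by UPL4 (Sevir.3G046000) and by Sevir.1G220300, a protein with ubiquitin-associated and PB1 domains like the selective autophagy receptors. The UPL4 gene was called higher at 18 against 10 DAS, with a log2 fold change of 1.52 (edgeR adjusted p = 9.11e-07). Of the 124 tested genes with these keywords, 52 were called higher and 16 lower in that comparison. The autophagy-receptor-like gene had 632 ± 45.5 CPM at 14 DAS, 591 ± 205 CPM at 15 DAS and 710 ± 105 CPM at 16 DAS, against 408 ± 27.5 CPM at 10 DAS and 454 ± 57.7 CPM at 18 DAS (SD, n = 4 each), and its edgeR adjusted p was 0.137 or more in the 3 comparisons. Chromatin was represented by SNF2-type helicase genes, Sevir.1G118600 and Sevir.5G121800, whose proteins move nucleosomes with ATP. Their log2 fold changes in the 3 comparisons lay between -0.25 and 0.12, with edgeR adjusted p of 0.155 or more.

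Under cell wall and lipid, the endoglucanase gene Sevir.1G316200, of the glycosyl hydrolase 9 family that cuts cellulose-type glucans, had 261 ± 32.0 CPM at 14 DAS, 299 ± 58.0 CPM at 15 DAS and 322 ± 33.9 CPM at 16 DAS, against 172 ± 14.3 CPM at 10 DAS and 196 ± 41.3 CPM at 18 DAS (SD, n = 4 each). The alpha-glucan phosphorylase gene Sevir.1G173100, whose enzyme class releases sugar phosphate from starch, was called higher at 15 against 14 DAS (log2 fold change 0.39, edgeR adjusted p = 0.0279). The receptor kinase Sevir.1G083600 was also counted there by keyword. Of the 102 tested genes with these keywords, 56 were called higher and 11 lower at 15 against 14 DAS.

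The other described genes fell under no keyword. They included IQ-domain gene IQD22 (Sevir.7G216000), of a family that binds calmodulin, with 235 ± 48.6 CPM at 15 DAS and 343 ± 35.7 CPM at 14 DAS (SD, n = 4 each) and a log2 fold change of -0.65 (edgeR adjusted p = 0.000184). Sevir.5G383400, a ROTUNDIFOLIA-like small peptide gene of the DVL family, which in Arabidopsis limits cell proliferation in organs, was lower at 15 against 14 DAS as well (-0.54, edgeR adjusted p = 0.0236). So was the tubby-like gene Sevir.1G062900 (-0.24, edgeR adjusted p = 0.0472). The calmodulin-binding gene Sevir.1G206600 was called higher at 18 against 10 DAS (0.43, edgeR adjusted p = 0.0353). No comparison gave a call in 12 of the 25 described genes (edgeR adjusted p from 0.0543 to 0.987). Among them were the spermine synthase gene Sevir.1G014400, whose enzyme makes polyamines, the BEACH-domain gene Sevir.1G267900, the transglycosylase-domain gene Sevir.1G070300, Sevir.1G182900 and Sevir.4G119300.

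The 150 genes lay on all 9 chromosomes as their identifiers give them, from 9 on chromosome 6 to 28 on chromosome 9, and none had an identifier outside the chromosomes. As a share of the tested genes of a chromosome, this was 0.447% on chromosome 2 to 1.07% on chromosome 8, beside 0.708% over all. In 7 pairs the genes were next to each other in identifier order. These pairs were Sevir.3G268500 and Sevir.3G268600, Sevir.3G381200 and Sevir.3G381300, Sevir.5G428900 and Sevir.5G429000, Sevir.5G462000 and Sevir.5G462100, Sevir.9G142500 and Sevir.9G142600, Sevir.9G316900 and Sevir.9G317000, and Sevir.9G495700 and Sevir.9G495800. Neighbours did not always behave alike. At 15 and 14 DAS, Sevir.9G317000 averaged 61.7 and 34.6 CPM, while Sevir.9G316900 averaged 5.47 and 7.03 CPM. Counts with a fraction occurred in both Sevir.5G428900 and Sevir.5G429000 (23 and 14 libraries), so reads may have been divided between them or with other copies. Among all 150 genes, 31 had such counts in at least 1 library.

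Finally, 11 genes that the study lists had scores that would have placed them among the 150. Of these, 4 exceeded the score of the gene ranked 20. Sevir.9G425100 had a score of 1.09, Sevir.3G038200 0.92, Sevir.5G256600 0.91 and Sevir.5G441400 0.84. Their highest mean was at 14 DAS, as in 31 of the 150 genes. Among the 20 highest scores, Sevir.7G119700, Sevir.3G240600, Sevir.7G201500, Sevir.4G119300, Sevir.3G294000, Sevir.4G292500 and Sevir.5G442600 were of these 31. Sevir.5G256600, for example, averaged 44.2 CPM at 14 DAS, 11.1 CPM at 15 DAS and 7.74 CPM at 16 DAS, against 2.42 CPM at 10 DAS and 3.89 CPM at 18 DAS.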

How the data were processed

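RNA was sequenced from 23 pools of dissected primordia of Setaria viridis A10.1 at 6 stages. The authors obtained the deposited expected counts (an estimated count per gene and library) with Salmon 0.8.1 from the primary transcripts of the v1.1 annotation and imported with tximport, without normalization. All columns were matched to samples by name. CPM is the count over the column total times 1000000, unscaled otherwise. For tests, counts were rounded, since 8.77% of values had a fraction. Testing used edgeR 4.0.16 (R 4.3.3) with TMM, filterByExpr (21180 genes), a mean per stage over all 23 libraries and the quasi-likelihood F-test, two-sided, with Benjamini-Hochberg adjustment over all tested genes. The standard error is the log2 fold change over the square root of F. All 150 genes passed the filter, and 1 had under 10 counts in some library. Code was tested on simulated data.

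The members and lists were chosen with earlier results of these data known. Comparisons of 14, 15 or 16 DAS with 10 or 18 DAS, and of 12 DAS with its neighbours, entered the choice and were not tested. Named genes are the 20 highest scores, the 5 largest called changes in each direction of each comparison, all described members, genes at the limit, neighbours and listed genes above the score ranked 20. Sevir.6G108900 and others outside the limit are not members. Alternatives were DESeq2 1.42.0, other scaling, filters, samples and replicate number as a block, and leaving out libraries. The labels name no batch or pool shared by a replicate number, and not every same-numbered pair correlated above 0.1, so numbers were not treated as pairs. Within a stage, no pair of libraries was a copy (chi-square per degree of freedom at least 3.51 over 33 pairs). Replicates are separate pools. The p-values rest on a single estimate per gene of the spread between pools, shared by all stages. They do not reflect a spread that is wider at 15 DAS, as in Sevir.2G180600 (SD 36.7 CPM, against 0.947 CPM at 14 DAS). The RefSeq table used here names 0 of the 150 identifiers, so no sequences or coordinates are given. Descriptions came from annotation tables of the study that were held in part. Figures were drawn with matplotlib 3.10.9 in Python 3.11.15.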

Additional observations from a re-analysis of the deposited data

Results flagged for a closer look

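In 6 of 200 groups of 4 libraries (the genes ranked 1 to 20 and those named in a comparison), 1 library stood apart from the other 3 by a gap test that chance passes in about 5% of groups. Sevir.5G432200 had 21.9 CPM in 14 DAS replicate 4, where the other 14 DAS libraries had 12.5 to 13.2 CPM. Sevir.7G145400 had 104.6 CPM in 18 DAS replicate 3, where the others had 85.8 to 86.6 CPM. Sevir.9G317000 had 12.4 CPM in 10 DAS replicate 4, where the others had 17.5 to 18.3 CPM, and 37.4 CPM in 16 DAS replicate 4, where the others had 27.4 to 29.0 CPM. Sevir.9G504800 had 174.9 CPM in 14 DAS replicate 2, where the others had 121 to 127 CPM. Sevir.8G172600 had 5.01 CPM in 18 DAS replicate 2, where the others had 5.86 to 5.96 CPM.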

How the results depend on the processing

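The choice of the 150 genes kept 127 to 148 of them when any 1 library was left out, 131 with TMM-scaled CPM, 122 with stage medians, 146 and 148 with pseudocounts of 1 and 0.25, 149 with rounded counts and 138 without 15 DAS replicates 1 and 2. Of the 150 genes, 69 were chosen under all 29 alternatives. Counts of members called in either direction stayed within 1.5 times the reported count at 15 against 14 and at 18 against 10 DAS. At 16 against 15 DAS (36 reported), 23 were called when only those stages were fitted, with fewer libraries, 23 without 15 DAS replicate 3 and 22 without 16 DAS replicate 3. Leaving out 1 library gave 43 to 55 calls at 15 against 14 DAS, 22 to 38 at 16 against 15 DAS and 35 to 42 at 18 against 10 DAS. By direction, scaling by library totals moved the lower calls at 15 against 14 DAS to 10 (20 reported) and the higher calls at 16 against 15 DAS to 6 (13 reported). Without 15 DAS replicates 1 and 2, 58, 43 and 43 members were called, of which 45, 24 and 39 were called the same way in the main fit. With the replicate block, 50, 34 and 40 were called. Same-numbered libraries correlated between -0.26 and 0.05 (15 and 14 DAS), 0.06 and 0.49 (16 and 15 DAS) and -0.16 and -0.03 (18 and 10 DAS) in their deviations, and at 16 and 15 DAS 1 of the 4 later and 2 of the 4 earlier libraries correlated best with their own number. DESeq2 called 52, 36 and 39. Of 449 refits of single named genes, 0 changed direction and 32 lost the call, in 7 of the 30 calls. Limits are the small size of the selected differences, the confounding of sequencing with stage between 14 and 15 DAS, the low depth of 15 DAS replicates 1 and 2, the spread at 15 DAS, and descriptions for 25 genes only.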
